A study of Mus musculus with 2 samples.

Results

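Chromatin accessibility at 9 inflammasome genes was measured in single nuclei of sham and stroke mouse brains. The genes were Naip2, Naip5, Naip6, Nlrc4, Nlrp3, Pycard, Casp1, Il1b and Il18, and they were taken from the 21911 protein-coding genes counted. They belong to a named pathway and were chosen from their fragment levels in these same nuclei, by library and class, so each level below is a description and none was tested. All mice were young adult male C57BL/6J animals with the genotype WT. Brains were harvested 48 h after the middle cerebral artery had been occluded for a time and reopened (MCAO/R, stroke), or after sham surgery. The stroke library was made from the ipsilateral hemispheres of 4 pooled brains, and the sham library from 4 pooled sham brains. Each condition was therefore 1 library without a replicate, and condition, tissue side and library cannot be told apart.

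In scATAC-seq, DNA of accessible chromatin is cut by the transposase Tn5, and the barcode of a fragment names its nucleus. A fragment was assigned to a gene when it lay over the gene body or the 2000 bases upstream of its start, and levels are given as such fragments per 1000000 fragments of the same nuclei (CPM). Of the called barcodes, 6817 of 6979 sham barcodes and 5054 of 8740 stroke barcodes had over 20% of their fragments in peaks and were kept, 11871 nuclei in all. The kept nuclei held 73477848 sham and 52794287 stroke fragments, with medians of 10356 and 9898 fragments per nucleus. The libraries also differed in quality, since the median share of fragments in peaks was 38.8% in sham and 33.2% in stroke nuclei. A total of 42 barcode sequences were kept in both libraries. Intervals in square brackets are exact 95% intervals, Poisson for a level and conditional binomial for a ratio, and cover counting error only.

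Inflammasomes are cytosolic complexes that assemble in myeloid and other cells after infection or damage. NAIP proteins bind bacterial flagellin or secretion-system proteins and then engage NLRC4, whereas NLRP3 responds to many kinds of cellular stress, including those of ischemic tissue. Both platforms lead to activation of caspase-1, for NLRP3 through the adaptor ASC encoded by Pycard, and caspase-1 cleaves the precursors of IL-1β and IL-18. Open chromatin at a locus is a state of its DNA and was not measured together with transcripts or proteins here.

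A few short stretches of DNA from these loci are shown first, while the levels and ratios below were counted over whole loci. Of the 500-base windows along the 9 loci, the one with the highest number of Tn5 cuts in myeloid-gated stroke nuclei lay in an intron of Naip2, which codes for a sensor of the type III secretion rod. The centre of this intronic window, chr13:100183192-100183491 of mm10 (GRCm38) on the minus strand, is printed below with the 250 bases before the RefSeq starts of Naip2 (chr13:100202123-100202372) and Naip5 (chr13:100247337-100247586), a flagellin sensor. The fourth stretch is the centre of the window with most myeloid cuts upstream of Naip6, another flagellin sensor (chr13:100317774-100318073). All 4 are read on the minus strand, and capitals mark AP-1 (TGANTCA), C/EBP (TTNNGNAA), PU.1 (GAGGAAGT) or TATA box (TATAAA) letters found on either strand.
Naip2 intronic window: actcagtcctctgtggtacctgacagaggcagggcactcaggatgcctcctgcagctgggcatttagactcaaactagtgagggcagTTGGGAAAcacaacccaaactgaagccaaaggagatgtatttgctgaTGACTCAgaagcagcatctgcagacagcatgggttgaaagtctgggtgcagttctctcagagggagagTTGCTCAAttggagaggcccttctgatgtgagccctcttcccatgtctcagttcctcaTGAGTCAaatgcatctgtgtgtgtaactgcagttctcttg
Naip2 upstream of start: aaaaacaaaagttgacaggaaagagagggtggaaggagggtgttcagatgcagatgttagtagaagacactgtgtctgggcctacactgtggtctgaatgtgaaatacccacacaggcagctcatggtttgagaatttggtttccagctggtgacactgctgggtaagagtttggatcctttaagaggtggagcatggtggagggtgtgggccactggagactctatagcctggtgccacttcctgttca
Naip5 upstream of start: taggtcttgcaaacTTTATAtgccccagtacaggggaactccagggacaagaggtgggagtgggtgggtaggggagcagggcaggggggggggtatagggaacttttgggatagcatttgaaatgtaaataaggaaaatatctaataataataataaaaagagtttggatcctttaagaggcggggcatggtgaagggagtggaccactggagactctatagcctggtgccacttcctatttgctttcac
Naip6 upstream window: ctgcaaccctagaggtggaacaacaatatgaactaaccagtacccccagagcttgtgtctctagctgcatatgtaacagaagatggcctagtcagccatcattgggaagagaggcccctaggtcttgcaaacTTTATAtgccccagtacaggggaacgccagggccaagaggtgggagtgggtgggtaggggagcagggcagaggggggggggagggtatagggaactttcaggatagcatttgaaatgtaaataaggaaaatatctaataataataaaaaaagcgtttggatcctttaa

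The Naip2 and Naip6 windows held 15.7% and 7.27% of the cuts of myeloid-gated nuclei over their loci, the latter on 8 cuts. The 300-base promoters that include the Naip2 and Naip5 upstream stretches had 9 and 8 cuts in myeloid-gated stroke nuclei. The intronic Naip2 window held 2 AP-1 and 2 C/EBP matches. Of all 32851 promoters of the same length, 300 bases, in the RefSeq table (GRCm38.p6), 7.81% held the AP-1 letters and 40.7% the C/EBP letters, so the latter are common. The TATA letters, found upstream of Naip5 and Naip6, occurred in 13.6% of promoters. The PU.1 letters, found in 3.20% of promoters, were not in the 4 stretches above. A match is a description of the letters and not evidence of binding.

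The Naip genes are paralogs, and the printed stretches hold runs of identical bases. The longest run of identical bases between the stretches before the Naip2 and Naip5 starts was 34 bases, and between the Naip5 and Naip6 stretches 46 bases. Such a run need not come from duplication of these genes, since repeats that occur across the genome can also give one. Repeats were not annotated here. Over whole loci, 78.1% of the 31-base words of Naip2 occurred once in the genome, against 41.8% for Naip5 and 43.9% for Naip6. Naip5 shared 26.7% of its words with Naip6, 5.63% with Naip1 and 4.99% with Naip2. Words were counted over the whole genome, so those found more than once need not lie in another Naip gene. Fragments from shared sequence can be dropped or assigned to the wrong copy, so the levels of Naip5 and Naip6 are uncertain. The other members had between 85.8% (Nlrc4) and 99.2% (Pycard) of words found once.

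The adaptor gene Pycard, Nlrp3 and Il18 also had open start regions in the classes described below. Their 250 bases before a RefSeq start are chr7:127993868-127994117 on the minus strand for Pycard, chr11:59542436-59542685 on the plus strand for the second Nlrp3 start, and chr9:50554450-50554699 on the plus strand for Il18. The Pycard and Il18 stretches lie outside the windows with most myeloid cuts in those genes. Capitals have the same meaning. Pycard was the only member whose promoter held the PU.1 letters, 44 bases before the start.
Pycard upstream of start: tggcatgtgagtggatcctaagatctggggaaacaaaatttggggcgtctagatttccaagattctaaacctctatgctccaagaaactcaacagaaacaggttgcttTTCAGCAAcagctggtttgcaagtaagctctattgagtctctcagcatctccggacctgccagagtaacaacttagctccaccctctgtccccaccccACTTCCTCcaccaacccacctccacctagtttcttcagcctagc
Nlrp3 upstream of second start: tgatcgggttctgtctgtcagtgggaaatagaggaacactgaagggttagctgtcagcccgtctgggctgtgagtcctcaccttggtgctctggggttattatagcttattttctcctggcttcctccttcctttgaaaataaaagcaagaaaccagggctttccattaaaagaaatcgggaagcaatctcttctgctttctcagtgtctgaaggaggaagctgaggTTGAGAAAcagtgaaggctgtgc
Il18 upstream of start: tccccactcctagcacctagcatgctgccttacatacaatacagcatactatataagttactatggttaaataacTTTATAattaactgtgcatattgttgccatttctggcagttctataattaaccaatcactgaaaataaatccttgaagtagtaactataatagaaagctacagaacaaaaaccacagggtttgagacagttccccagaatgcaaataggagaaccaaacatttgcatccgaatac

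The C/EBP letters stood in the promoters of 5 members (Il1b, Naip6, Nlrc4, Nlrp3 and Pycard) and the TATA letters in those of 3 (Il18, Il1b and Naip5). None of the 10 member promoters held the AP-1 letters, the NF-kB motif or the IRF motif, which 7.81%, 1.20% and 3.44% of all promoters held.

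The first comparison asked how the loci differed between the whole libraries. The sensor genes of the Naip family were higher in stroke. Naip2 had 3.33 CPM [2.93 to 3.78] in sham (245 fragments) and 10.2 CPM [9.33 to 11.1] in stroke (537 fragments), a ratio of 3.05 [2.62 to 3.56]. Naip5 had 1.46 and 3.11 CPM (ratio 2.13 [1.66 to 2.75]), and Naip6 had 1.96 and 4.22 CPM (ratio 2.16 [1.74 to 2.68]). Naip2 had the largest ratio of the 9 members.

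The other sensors were nearly level. Nlrc4, the partner of the NAIP proteins, had 10.2 CPM in sham and 10.9 CPM in stroke (ratio 1.06 [0.95 to 1.19]). Nlrp3 had 8.57 and 9.17 CPM (ratio 1.07 [0.95 to 1.21]). Per kilobase of locus in stroke nuclei, Nlrp3 was at 0.335 CPM and Naip2 at 0.169 CPM, so the gene with the largest ratio was still the less open of the pair. The highest member per kilobase was Pycard, at 1.97 CPM in sham and 1.78 CPM in stroke.

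Among the downstream genes, Casp1, the protease, had 1.01 CPM in sham and 1.61 CPM in stroke (ratio 1.60 [1.16 to 2.21]). The adaptor gene Pycard had 12.2 and 11.0 CPM (ratio 0.90 [0.811 to 1.003]). The cytokine gene Il1b had 4.11 and 3.66 CPM (ratio 0.89 [0.74 to 1.07]), and Il18 had 12.5 and 15.3 CPM (ratio 1.22 [1.11 to 1.35]). The plot of levels over all kept nuclei shows both libraries side by side.

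**Figure D1:**
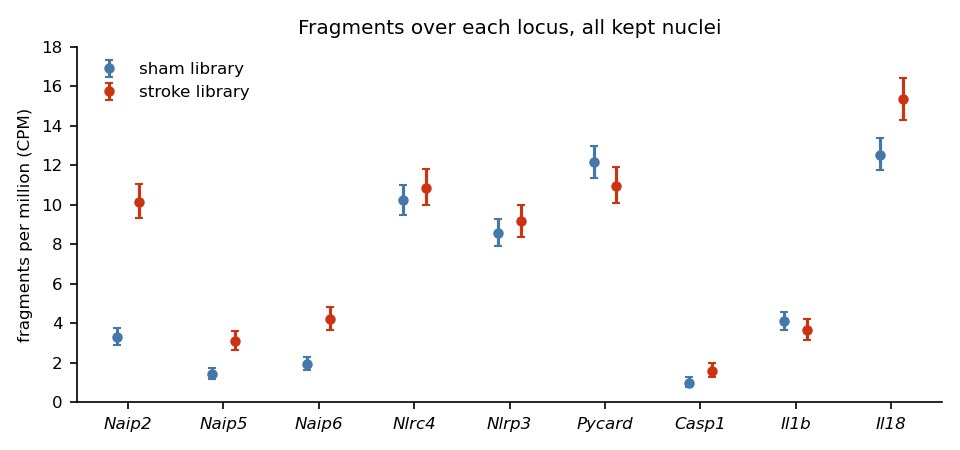
Fragments over each locus in CPM (y axis) for the 9 genes (x axis) in all kept nuclei of the sham (blue) and stroke (red) libraries; bars are exact 95% Poisson intervals. Naip2 (10.2 against 3.33 CPM), Naip5, Naip6 and Casp1 stand at least 1.5-fold higher in stroke, and the other 5 genes are closer.

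Of the 9 genes, 4 were at least 1.5-fold higher in stroke and 0 were lower by that factor, where 11.5% of all 20979 genes with enough fragments were higher and 0.372% lower. The median ratio was 1.22 over the members and 0.981 over all genes. Summed over the 9 loci, the ratio was 1.25 [1.19 to 1.31]. Classes change in share between the libraries, so a shift in the mixture and a shift within a class cannot be told apart in these totals. Without the myeloid-gated nuclei introduced below, the summed ratio was 1.10.

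Outside the myeloid class, the ratio of some members moved with barcode quality. In nuclei outside the myeloid class (second gate, below) with 20 to 30% of fragments in peaks, Naip2 had 3.97 CPM in sham and 11.4 CPM in stroke, a ratio of 2.88 [2.07 to 4.08]. At 30 to 40% the levels were 2.58 and 5.63 CPM (ratio 2.18 [1.61 to 2.97]), and above 40% they were 3.60 and 3.87 CPM (ratio 1.08 [0.75 to 1.52]). The Naip2 difference was thus present in the lower bins and within counting error in the highest one. The part of barcode quality in it was not tested.

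Naip6 had ratios of 2.28 [1.5 to 3.56], 1.47 [0.94 to 2.30] and 1.48 [0.96 to 2.23] in these bins, also highest in the lowest one. Naip5 had a ratio of 1.77 [1.12 to 2.87] at 20 to 30%, 1.07 [0.65 to 1.72] at 30 to 40% and 1.51 [0.83 to 2.67] above 40%. Nlrp3 stayed between 0.82 and 1.09 in all 3 bins, and Pycard between 0.78 and 0.89. In the same order of bins, Il18 had 1.17, 1.27 and 1.41, highest in the top bin, Il1b had 1.06, 0.82 and 0.61, and Nlrc4 had 1.15, 0.90 and 0.97. Just under the limit, at 10 to 20%, Naip2 had 21.3 CPM in stroke and 24.3 CPM in sham barcodes, both above the levels just over it. The plot of level against share in peaks shows this gradient for both Naip genes and the opposite one for Pycard. These levels count fragments inside and outside peaks and are not scaled to locus length. The Naip2 locus spans 60.0 kb and that of Pycard 6.16 kb.

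**Figure D2:**
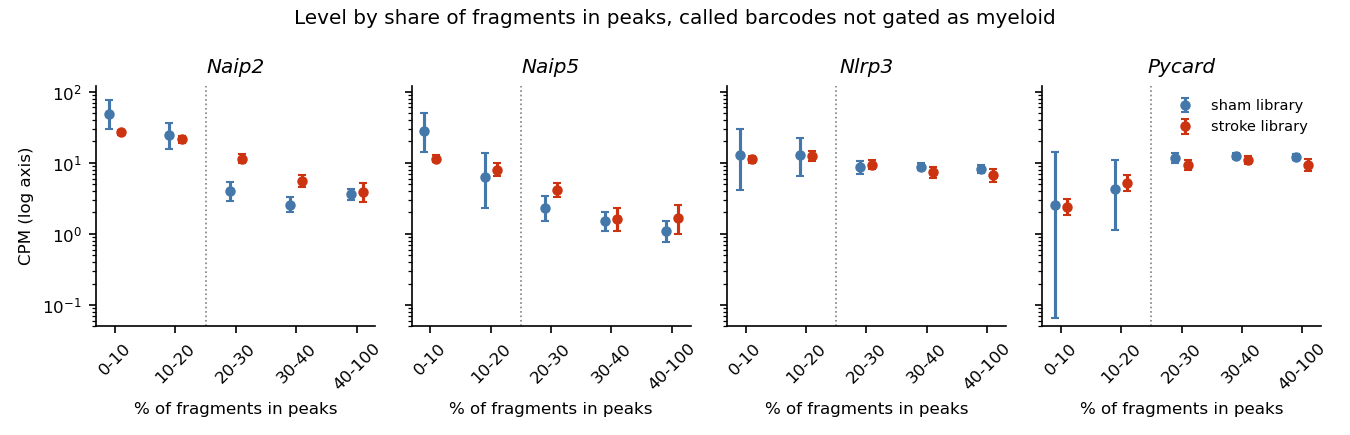
Level (CPM, log y axis) of Naip2, Naip5, Nlrp3 and Pycard by the percent of fragments in peaks (x axis, 5 bins) in called barcodes not gated as myeloid (those at or under 20% were not gated at all), sham in blue and stroke in red; bars are exact 95% Poisson intervals and the dotted line marks the 20% limit. Naip2 and Naip5 are highest at the left, Nlrp3 changes less, and Pycard is lowest at the left.

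To ask in which cells the loci were open, nuclei were gated by fragments over fixed marker genes that include none of the 9 members. The myeloid class, which takes in microglia, macrophages and other leukocytes, comprised 186 nuclei of the sham library (2.73%, exact binomial interval 2.35 to 3.14%) and 310 of the stroke library (6.13%, interval 5.49 to 6.83%). The label was then checked on 8 microglia genes that the gate had not used. In stroke, these genes summed to 269 CPM in myeloid-gated nuclei and 97.4 CPM in other nuclei. In sham, they summed to 121 against 85.3 CPM. Single sham markers were mixed, since Siglech (5.49 against 2.40 CPM), Tmem119 (7.19 against 3.42 CPM) and P2ry13 (8.03 against 4.12 CPM) were higher on 13 to 19 fragments, while the microglial regulator Sall1 stood at 11.0 against 13.1 CPM. The Cx3cr1 locus, which the gate had used, stood at 844 against 163 CPM. Astrocyte-gated sham nuclei had 151 CPM over the same 8 genes, more than the myeloid-gated ones. The label was thus only weakly borne out in the sham group, and its values below belong to nuclei passing that gate rather than to a cell type.

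A second gate was therefore added after these values were seen, in which each nucleus was scored without the marker locus that exceeded its expectation most. It called 23 nuclei myeloid in sham (0.337%, interval 0.214 to 0.506%) and 181 in stroke (3.58%, interval 3.09 to 4.13%). The second group is not a subset of the first, since in sham it took in nuclei that the first gate had not called myeloid. The 8 genes, which this gate does not use either, summed to 433 against 85.2 CPM in sham and to 360 against 98.4 CPM in stroke. Astrocyte-gated nuclei of the second gate had 200 and 174 CPM over them. The label was thus better borne out in sham than by the first gate, although the gate was added after these genes had been seen. Myeloid levels below are given with both gates except where the first alone is named, and the sham side of the second rests on few nuclei. All 30 genes of the gate list had fragments in the myeloid groups of both gates, as they also had in astrocyte-gated and other nuclei.

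Markers of some other cell types moved with the stroke class. The 12 granulocyte genes summed to 96.7 CPM in myeloid-gated and 62.7 CPM in other stroke nuclei (114 and 62.9 CPM with the second gate), all 12 with fragments. The 11 genes of monocytes and macrophages summed to 167 and 126 CPM (183 and 126 CPM with the second gate), of which 1 was at 0 with the second gate. In sham myeloid nuclei of the second gate, the granulocyte list stood at 72.8 CPM, against 59.7 CPM in other nuclei, with 7 of 12 genes at 0. The monocyte and macrophage list stood at 95.9 CPM there, against 116 CPM in other nuclei, with 4 of 11 at 0. By the first gate these sham lists stood at 49.9 against 60.1 CPM and at 118 against 116 CPM. The 12 lymphocyte genes were lower in stroke, with 204 CPM in myeloid-gated and 221 CPM in other nuclei (188 and 221 CPM with the second gate), and higher in sham, with 272 and 219 CPM (230 and 220 CPM, 4 of 12 at 0). The 21 oligodendrocyte genes were higher in stroke myeloid-gated nuclei, at 680 and 588 CPM (739 and 588 CPM with the second gate). In sham they stood at 504 and 515 CPM by the first gate and at 748 and 513 CPM by the second, with 2 of 21 at 0. The monocyte receptor gene Ccr2 had 28 fragments in the 181 stroke nuclei and 1 in the 23 sham nuclei. The 25 vascular and leptomeningeal genes stood at 570 against 527 CPM in stroke (590 against 527 CPM with the second gate), and at 510 against 489 CPM in sham (625 against 490 CPM, 4 of 25 at 0). The part of these cell types in the member levels was not tested.

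In stroke, the members were more open in myeloid-gated nuclei than in other nuclei. Of the 9 genes, 6 were at least 2-fold higher and 0 lower by that factor, where 6.07% of all genes were higher and 2.48% lower. Under the second gate 7 of the 9 were higher and 0 lower, where 8.6% of all genes were higher and 6.67% lower. The median ratio was 2.91 over the members and 0.994 over all genes, and with the second gate 3.27 and 1.003. Summed over the 9 loci, levels were 160 and 60.4 CPM, a ratio of 2.64 [2.44 to 2.87], and with the second gate 203 and 61.5 CPM, a ratio of 3.30 [3.01 to 3.60].

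Among the sensors, Naip2 differed most. Naip2 had 44.0 CPM (205 fragments) in the 310 myeloid-gated stroke nuclei and 6.90 CPM (332 fragments) in other stroke nuclei, a ratio of 6.38 [5.34 to 7.62]. Its levels by the second gate were 60.4 and 7.31 CPM, a ratio of 8.27 [6.86 to 9.94], and the 172 fragments came from 88 nuclei with at most 7 in 1 nucleus. The second gate, with fewer nuclei, thus gave the larger contrast.

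The contrast for Naip2 was present at each level of barcode quality. The ratio of second-gate myeloid to other stroke nuclei was 5.04 [3.89 to 6.47] at 20 to 30% of fragments in peaks, 11.6 [8.45 to 15.7] at 30 to 40% and 14.8 [6.66 to 29.7] above 40%. Levels in the myeloid nuclei themselves were 57.6, 65.0 and 57.3 CPM in these bins, while those of other nuclei were 11.4, 5.63 and 3.87 CPM. The 3 levels of Naip2 in myeloid nuclei of stroke brains were thus close, but the wide ratio interval above 40% leaves that bin uncertain.

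Naip5 had 9.67 against 2.47 CPM (ratio 3.91 [2.71 to 5.55]) and, with the second gate, 13 against 2.54 CPM (ratio 5.11 [3.45 to 7.43]). Naip6 had 10.5 against 3.61 CPM (ratio 2.91 [2.08 to 4.02]), or 12.3 against 3.76 CPM (ratio 3.27 [2.21 to 4.71]). Their shared sequence leaves the split of fragments between these paralogs uncertain, while both stood above other nuclei. Across the bins of peak share, the second-gate ratio of Naip5 was 1.83 [0.91 to 3.39] at 20 to 30%, 9.60 [5.00 to 17.8] at 30 to 40% and 27.8 [10.6 to 65.9] above 40%, the last on 8 fragments. Naip6 had 2.76 [1.72 to 4.26], 3.36 [1.36 to 7.23] and, on 1 fragment, 1.88 [0.05 to 11.1]. By the first gate the Naip5 ratio at 20 to 30% was 1.51 [0.82 to 2.62], and the Naip6 ratio above 40% was 0.93 [0.02 to 5.50].

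Nlrp3 had 23.8 against 7.75 CPM (ratio 3.08 [2.47 to 3.81]), or 30.6 against 7.95 CPM with the second gate (ratio 3.85 [3.01 to 4.86]). Nlrc4 showed a small difference, 15.3 against 10.4 CPM (ratio 1.46 [1.12 to 1.87]), or 17.2 against 10.5 CPM with the second gate (ratio 1.64 [1.20 to 2.20]). A single nucleus gave 10 of the 49 Nlrc4 fragments of the second gate, so this value leans on few nuclei. The ratio of Nlrc4 was thus below those of Naip2, Naip5 and Naip6 in the same nuclei, a difference that was not tested.

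The adaptor and protease genes were also higher in the myeloid class. Pycard had 21.7 against 9.93 CPM (ratio 2.18 [1.74 to 2.71]), or 27.8 against 10.0 CPM (ratio 2.77 [2.16 to 3.52]). Casp1 had 4.73 against 1.31 CPM (ratio 3.61 [2.12 to 5.95]), or 4.92 against 1.42 CPM on 14 fragments (ratio 3.46 [1.80 to 6.20]).

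The cytokine loci had the smallest contrasts after Nlrc4. Il1b had 5.58 against 3.47 CPM (ratio 1.61 [1.02 to 2.44]), or 6.68 against 3.48 CPM (ratio 1.92 [1.13 to 3.08]), and 8 of the 19 fragments of the second gate came from 1 nucleus. With fragments within 1000 bases of the start alone, the Il1b ratio by the first gate was 0.969 [0.190 to 3.10]. Il18 had 24.3 against 14.5 CPM (ratio 1.68 [1.36 to 2.05]), or 29.9 against 14.5 CPM (ratio 2.06 [1.62 to 2.58]). Neither cytokine gene came near the contrast of Naip2.

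In sham, the same contrast depended on the gate. With the first gate 2 of 9 members were at least 2-fold higher in myeloid-gated nuclei, where 2.89% of all genes were, and 0 were lower, where 6.54% were. The summed ratio was 1.22 [1.04 to 1.43]. By the second gate 6 of 9 were higher, where 11% of all genes were, and 0 lower, where 27.2% were. The summed ratio was 2.58 [1.81 to 3.56] on 37 fragments. Of these 6, Naip5 had 1 myeloid fragment (interval 0.066 to 15.1), Casp1 had 2 (interval 0.927 to 29.2) and Naip6 had 3. The intervals of Naip5 and Casp1 included 1, so this count leans on very few fragments. Naip2 had 3.80 against 3.32 CPM with the first gate (ratio 1.15 [0.52 to 2.21]) and 23.0 against 3.26 CPM with the second (6 fragments, ratio 7.05 [2.56 to 15.6]). Nlrp3 was above 2-fold with either gate, at 2.59 [1.90 to 3.46], with 10 of 50 fragments in 1 nucleus, and 3.15 [1.26 to 6.54]. The plot of both gates shows the blue sham points of Naip2 moving apart under the second gate.

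**Figure D3:**
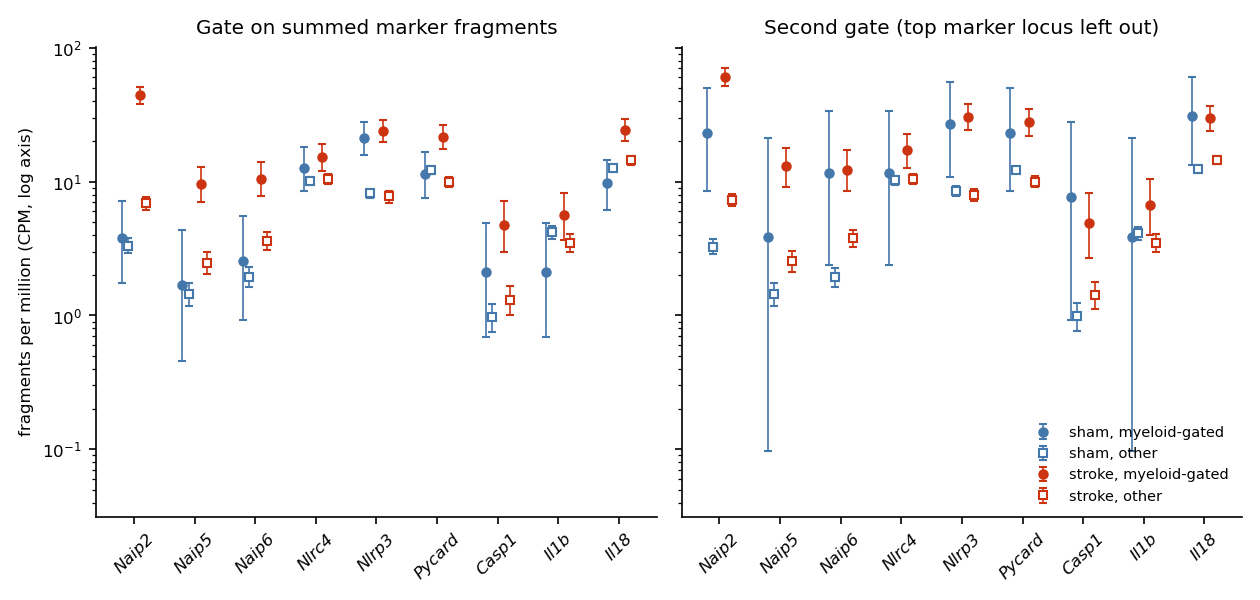
Level of the 9 genes (x axis) in CPM (log y axis) with the gate on summed marker fragments (left) and the second gate (right); filled circles are myeloid-gated and open squares other nuclei, sham in blue and stroke in red, with exact 95% Poisson intervals. With the second gate, Naip2 stands at 60.4 CPM in stroke myeloid nuclei and 23.0 CPM in sham ones, above other nuclei of both libraries.

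Stroke was then compared with sham within the myeloid class, where the gate decides most of the outcome. With the first gate 7 of 9 members were at least 1.5-fold higher in stroke, where 16.3% of all genes were, and 0 lower, where 13.9% were. Of these 7, Casp1 (ratio 2.24 [0.83 to 7.56]) and Il1b (ratio 2.64 [0.999 to 8.81]) rest on 5 sham fragments each and have intervals that include 1. The summed ratio was 2.37 [2.00 to 2.84]. By the second gate, 3 of the 8 members with at least 20 fragments were higher, where 25.1% of all genes were, and 0 lower, where 18.7% were. Those 3 were Naip2, Naip5 and Il1b, and Naip5 and Il1b had 1 sham fragment each, while Casp1, with 14 and 2 fragments and a ratio of 0.642 [0.147 to 5.82], fell below the minimum of 20, so these counts say little about the members. The summed second-gate ratio was 1.43 [1.02 to 2.05], on 577 stroke and 37 sham fragments, of which Naip2 gave 172 and 6. Naip2 had 44.0 against 3.80 CPM with the first gate (205 and 9 fragments, ratio 11.6 [5.98 to 25.7]) and 60.4 against 23.0 CPM with the second (172 and 6 fragments, ratio 2.63 [1.18 to 7.26]). The 6 sham fragments came from 4 nuclei with 3 in 1 nucleus, so this ratio leans on that nucleus. For each of the other 8 members the interval of the second gate included 1.

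Among the other members, the ratio of Nlrp3 hardly moved with the gate and was 1.13 [0.801 to 1.61] by the first. Nlrc4 had 1.20 [0.77 to 1.91] by the first gate and 1.497 [0.48 to 7.51] by the second, and each interval included 1. The ratios of the remaining members were lower by the second gate, with overlapping intervals. Naip5 had a ratio of 5.72 [2.08 to 21.9] and Naip6 of 4.15 [1.78 to 11.9] by the first gate, against 3.39 [0.57 to 138] and 1.07 [0.34 to 5.43] by the second. Pycard had 1.90 [1.23 to 3.02] by the first gate (101 and 27 fragments). By the second, Nlrp3 had 30.6 CPM in stroke and 26.8 CPM in sham (ratio 1.14 [0.53 to 2.92]), and Pycard 27.8 and 23.0 CPM (ratio 1.21 [0.53 to 3.39]). Il18 had 29.9 and 30.7 CPM (ratio 0.974 [0.472 to 2.33]), although the first gate had put it at 2.50 [1.58 to 4.10]. The sham counts of Naip5, Naip6, Nlrc4, Casp1 and Il1b were between 1 and 3 fragments, at which depth a difference was not detectable.

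The position of Tn5 cuts within the loci was examined in windows of 500 bases, with rates per 1000000 cuts of the same nuclei, since the groups differ in depth. At Naip2 the window with most cuts in myeloid-gated nuclei lay in an intron, 18500 to 18999 bases downstream of the start, and is the one whose centre is printed above. It held 67 cuts in myeloid-gated stroke nuclei, a rate of 7.20, and 0 in myeloid-gated sham nuclei. By the second gate it held 65 and 2 cuts, rates of 11.4 and 3.83. In nuclei that were neither myeloid nor astrocyte it held 22 cuts in stroke and 24 in sham, rates of 0.255 and 0.180, and astrocyte-gated nuclei had 5 and 0 cuts. The window held 18.8% of the cuts of second-gate myeloid nuclei over the 121 windows of the locus.

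At Naip5 the top window lay 501 to 1000 bases upstream of the GENCODE start, next to the RefSeq start whose upstream sequence is printed above. This window held 23 cuts in myeloid-gated stroke nuclei (rate 2.47, or 3.69 with the second gate) and 3 cuts in other stroke nuclei (rate 0.0348). It held 0 cuts in myeloid-gated sham nuclei with either gate. The second-gate sham group held only 260816 fragments, too few for 0 cuts to show a closed window. At Naip6 the top window, upstream of the start, held only 5 stroke and 3 sham cuts with either gate. These are rates of 0.537 and 0.634 by the first gate and of 0.879 and 5.75 by the second, higher in sham, on very few cuts. Counted within 1000 bases of the start alone, and by the first gate, Naip2 and Naip5 both had a ratio of 18.1 [7.08 to 49.8] between myeloid-gated and other stroke nuclei.

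At Nlrp3 the top window lay 1000 to 1499 bases downstream of the GENCODE start and covers the second RefSeq start. Its 37 cuts in myeloid-gated stroke nuclei and 4 in sham ones were rates of 3.97 and 0.845, and its 32 and 2 cuts by the second gate were rates of 5.62 and 3.83, against 0.220 and 0.173 in other nuclei. Astrocyte-gated nuclei had most Nlrp3 cuts in another window, 2500 bases downstream. That window held 110 cuts in other stroke nuclei, against 19 in the first window, and 10 in myeloid-gated ones (5 with the second gate). The windows were picked as those with most myeloid and most astrocyte cuts. The order of the windows in these 2 classes therefore follows from the choice and is no finding. In sham myeloid nuclei the first window held 4 cuts and the other 10 by the first gate, and each held 2 by the second.

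Pycard, Casp1 and Il18 had most myeloid cuts in the first 500 bases of the gene. The Pycard window held 48 cuts in myeloid-gated stroke nuclei and 128 in other stroke nuclei, rates of 5.16 (6.33 with the second gate) and 1.48, so it was open in both. The Casp1 window had rates of 1.72 (1.93) and 0.185. The Il1b window lay 3500 bases downstream, over exon and intron sequence, and had rates of 1.5 (1.76) and 0.695, and the Nlrc4 window lay in an intron with rates of 0.967 (1.41) and 0.591. In first-gate sham nuclei the myeloid rates of these windows were below those of other nuclei for Casp1 (0 against 0.270), Pycard (1.27 against 1.84), Il1b (0.845 against 0.960) and Il18 (1.48 against 2.76). These windows held between 0 and 2 cuts in sham myeloid nuclei of the second gate. The profiles along 4 loci show the sharp Naip2 and Naip5 windows beside the broader Pycard signal.

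**Figure D4:**
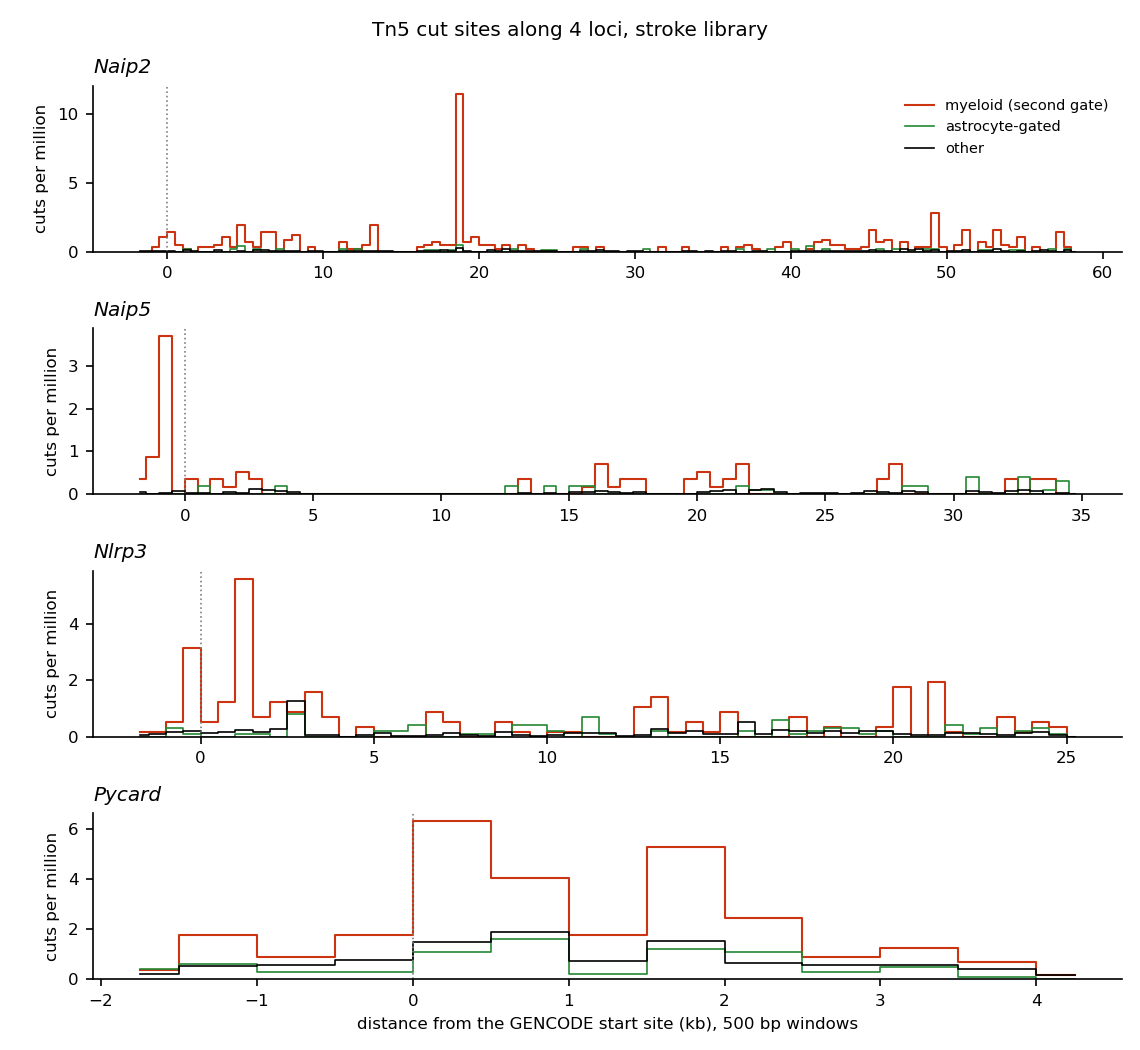
Tn5 cuts in windows of 500 bases per 1000000 cuts of the same nuclei (y axis) by distance from the GENCODE start in kb (x axis) at Naip2, Naip5, Nlrp3 and Pycard in the stroke library; red is the myeloid class of the second gate, green astrocyte-gated nuclei and black the remaining nuclei, both of the first gate. The tallest red window is intronic at Naip2, upstream of the dotted start line at Naip5, downstream of it at Nlrp3 and at the start of Pycard.

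Levels were then compared over all classes. Naip2 in stroke ranged from 3.25 CPM in glutamatergic neurons to 8.77 CPM in oligodendrocyte precursors (OPCs) among the non-myeloid classes with at least 100 nuclei, and the intervals of neighbours in that order overlapped. A single nucleus gave 11 of the 19 Naip2 fragments of stroke OPCs, so the top of this range leans on it. In sham these classes ranged from 1.80 CPM in vascular and leptomeningeal nuclei to 6.71 CPM in astrocytes, where 10 of the 30 fragments came from 1 nucleus. Ungated nuclei had 3.13 CPM in sham and 7.63 CPM in stroke. The myeloid value of 44.0 CPM thus stood apart from every other stroke class, while the sham value of 3.80 CPM lay inside the range of the others (23.0 CPM by the second gate).

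Il18, a cytokine gene active in many cell types, had another order. It was highest in astrocyte-gated nuclei, at 37.1 CPM in sham (166 fragments) and 36.5 CPM in stroke (182 fragments). In stroke OPCs followed at 24.9 CPM and myeloid-gated nuclei at 24.3 CPM, which overlap in their intervals (astrocytes 43.7, OPCs 36.1 and myeloid nuclei 29.9 CPM by the second gate), and glutamatergic neurons were lowest at 4.25 CPM. The first 500 bases of Il18 held 138 sham and 142 stroke cuts of astrocyte-gated nuclei, 40.3% of their cuts over the locus. Another gene, Bco2 or Tex12, covers 23.7% of the Il18 locus.

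**Figure D5:**
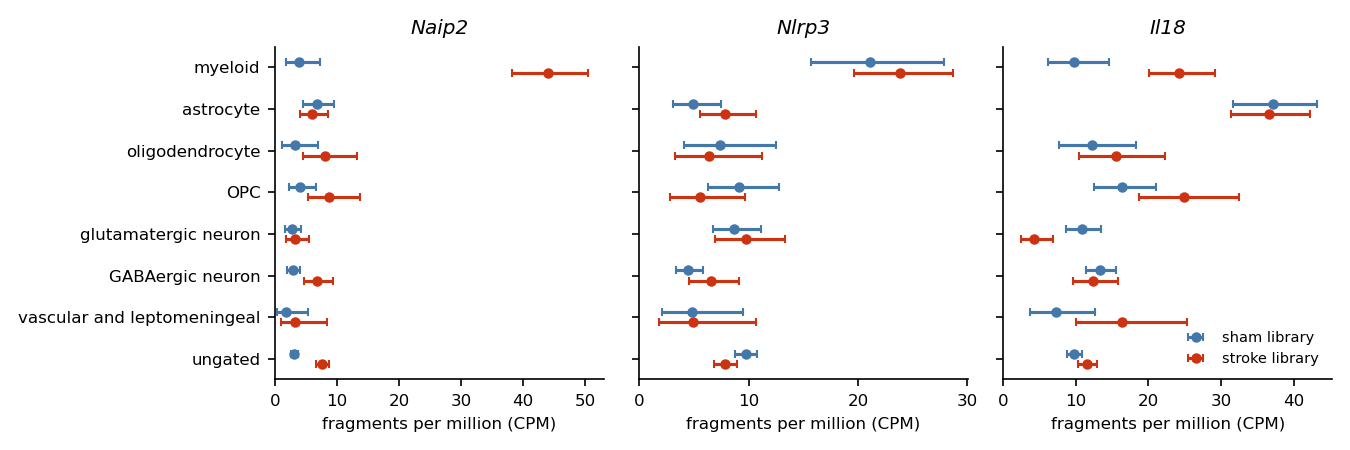
Level in CPM (x axis) of Naip2, Nlrp3 and Il18 by gated class (y axis, first gate) in sham (blue) and stroke (red) nuclei, with exact 95% Poisson intervals. Naip2 stands out in stroke myeloid-gated nuclei at 44.0 CPM, Nlrp3 in myeloid-gated nuclei of both libraries at 21.1 and 23.8 CPM, and Il18 in astrocyte-gated nuclei at 37.1 and 36.5 CPM.

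In astrocytes, the summed level differed little between stroke and sham. Over the 9 loci, astrocyte-gated nuclei had 71.1 CPM in sham and 73.5 CPM in stroke, a ratio of 1.03 [0.89 to 1.20]. With the second gate it was 0.982 [0.817 to 1.18]. Il18 gave 166 of the 318 sham and 182 of the 366 stroke fragments of this sum. With the second gate it gave 132 of 203 and 146 of 282. The sum thus rests largely on Il18 and says less about the other members. Of 7 members with enough fragments, 1 was at least 1.5-fold higher and 0 lower, where 7.58% of all genes were higher and 7.14% lower. By the second gate these were 2 and 0 of 7, where 10.5% of all genes were higher and 7.41% lower. Nlrp3 was the gene past the fold, at 7.83 against 4.92 CPM (ratio 1.59 [0.92 to 2.82]), and its interval included 1. The second-gate ratio of Nlrp3 was 2.32 [0.97 to 6.41] and that of Pycard 1.70 [0.91 to 3.33]. Il18, level by the first gate at 0.984 [0.793 to 1.22], was lower in stroke by the second, at 43.7 against 55.9 CPM (ratio 0.782 [0.613 to 0.997]). Naip2 had 6.02 CPM in stroke and 6.71 CPM in sham astrocytes (ratio 0.90 [0.52 to 1.54]). The Naip2 difference between the libraries was therefore not seen in these nuclei, within the stated interval. Their median share of fragments in peaks was high, at 47.9% in sham and 49.5% in stroke. In the highest bin of peak share, all nuclei outside the myeloid class (second gate), astrocytes among them, had a Naip2 ratio of 1.08 [0.75 to 1.52]. Whether the absence belongs to the class or to its peak share was not tested.

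Il18 in glutamatergic neurons was lower in stroke, with 10.9 CPM [8.62 to 13.5] in sham (81 fragments) and 4.25 CPM [2.48 to 6.80] in stroke (17 fragments). Naip2 in the same nuclei was at 2.68 and 3.25 CPM. By the second gate, Il18 in this class had 13.5 CPM [9.55 to 18.5] in sham on 38 fragments, 9 of them from 1 nucleus. In stroke it had 4.25 CPM [1.56 to 9.26] on 6 fragments. This value was picked from many genes and classes, and no share of all genes is given for the class.

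Other genes of the pathway were taken from a list of 38 non-members. In all kept nuclei, 12 of 38 were at least 1.5-fold higher in stroke, where 11.5% of all genes were, and 0 were lower. In myeloid-gated stroke nuclei, 12 of 38 were at least 2-fold above other nuclei, where 6.07% of all genes were, with a median ratio of 1.57, and with the second gate 14 of 38 were higher and 1 lower, where 8.6% and 6.67% of all genes were. By role, the 12 of the first gate were 2 of 8 sensors, 3 of 3 proteases, 1 of 2 cytokines, 2 of 8 receptors and inhibitors, 1 of 5 pore and membrane rupture genes and 3 of 12 priming and regulation genes. The second gate gave 3 sensors and 4 priming genes, and the other counts were equal. The list holds Naip1 among the sensors and was drawn up with earlier values of these libraries known.

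The proteases are the group in which each listed gene passed the fold. Casp8, an apoptosis and inflammasome protease, had 30.5 CPM in myeloid-gated and 8.21 CPM in other stroke nuclei (ratio 3.72 [3.05 to 4.51]; 4.94 with the second gate). Casp12 had 7.30 and 3.49 CPM (ratio 2.09 [1.40 to 3.04]; 2.04 with the second gate). In all kept nuclei Casp12 was at 3.83 CPM in stroke and 1.55 CPM in sham.

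Among the sensors, Nlrp1b had 26.8 and 7.44 CPM (ratio 3.61 [2.92 to 4.44]; 5.24 with the second gate). Mefv, which codes for pyrin, had 5.80 and 1.27 CPM (ratio 4.58 [2.80 to 7.31]; 4.51 with the second gate). Naip1, which codes for a sensor of the secretion needle, had 9.02 and 7.69 CPM (ratio 1.17 [0.83 to 1.62]; 1.33 with the second gate). Naip1 was thus near the level of other nuclei, unlike Naip2, Naip5 and Naip6.

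Of the remaining named genes, the cytokine gene Il1a had 13.3 and 3.30 CPM (ratio 4.03 [2.96 to 5.44]; 5.27 with the second gate), above the ratio of 1.61 for Il1b (1.92). Il1rn, which codes for the receptor antagonist, had 7.30 and 3.28 CPM (ratio 2.23 [1.49 to 3.24]; 2.27 with the second gate). Irf8, a myeloid transcription factor, had 47.7 and 13.4 CPM (ratio 3.57 [3.05 to 4.16]; 4.78 with the second gate). Tlr4, the lipopolysaccharide receptor that primes inflammasome genes, had 44.5 and 25.4 CPM (ratio 1.75 [1.5 to 2.03]; 2.29 with the second gate), and the guanylate-binding protein gene Gbp5 had 13.3 and 7.77 CPM (ratio 1.71 [1.29 to 2.25]; 1.87 with the second gate).

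Within the myeloid class, 25 of the 38 genes were at least 1.5-fold higher in stroke than in sham and 1 lower by the first gate, where 16.3% and 13.9% of all genes were. By the second gate 16 of 34 with enough fragments were higher and 5 lower, where 25.1% and 18.7% of all genes were. The 10 genes named had the largest folds by the first gate in any of several comparisons. These were myeloid-gated over other stroke nuclei, and stroke over sham in myeloid-gated or astrocyte-gated nuclei. Mefv, Casp12, Gbp5, Naip1, Tlr4 and Il1rn were ranked by stroke over sham in myeloid-gated nuclei. They stood between 3.46-fold (Il1rn) and 13.7-fold (Mefv, 27 against 1 fragment, interval 2.26 to 562) higher in stroke. Casp12 had 2 sham fragments, Naip1 had 4, and Gbp5 and Il1rn had 5 each. By the second gate, Mefv, Casp12, Naip1 and Il1rn had 0 fragments in the 23 sham nuclei, where 3 counts correspond to 11.5 CPM. Their stroke levels, between 6.33 and 10.2 CPM, lay under that limit, so no fold is given. Tlr4 had a ratio of 1.68 [0.86 to 3.74] by the second gate and Gbp5 1.92 [0.50 to 16.4] on 2 sham fragments.

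Genes with the most similar pattern were listed for 3 members, over 17 groups of at least 50 nuclei by class and library, from log2 of CPM with 1 added. For Naip2 these were Sp100 (Pearson r 0.90), Cmss1 (0.90) and Adgre1 (0.88). For Nlrp3 they were Spi1 (0.90), Tyrobp (0.87) and Itgam (0.85), which all belong to the gate list and so are raised in the myeloid group by its construction. For Il1b they were Slamf6 (0.83), Clec4g (0.81) and Ldlrad4 (0.81). For each member these are the 3 highest values among 17968 genes compared. Naip2 stood far above the other stroke classes in myeloid-gated nuclei, so its values can rest largely on that group. The 17 groups share 2 libraries and differ in depth, and these values are descriptions.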

How the data were processed

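The submitters' processing notes name Cell Ranger ATAC 2.1.0, Cell Ranger ARC and the build mm10. The authors deposited, per library, deduplicated fragments with their read counts and per-barcode counts of fragments in peaks, without normalization. Called barcodes with over 20% of fragments in peaks were kept.

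Fragments were counted over protein-coding genes of GENCODE M21 (gene body plus 2000 bases upstream) with Python 3.11.15, numpy 2.4.6, scipy 1.17.1 and pandas 2.3.3. A nucleus joined 1 of 8 classes when fragments over that class's markers (30 for myeloid, 169 in all) exceeded the expectation from depth at least 2-fold, with a Poisson p below 0.001 and at least 3 loci. Doublets were not removed, except in an alternative without nuclei past several gates. The second gate left out each nucleus's top marker locus. Gates and folds were run on simulated nuclei in which all markers of a class were raised together. A gate passed through a single locus could not arise there, so the simulation does not bear on the sham myeloid label.

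The 9 members, the marker lists and the pathway list were chosen with earlier results of these data known. With 1 library per condition no test was made. Genes with at least 20 fragments in both groups together entered shares past 2-fold (classes) or 1.5-fold (libraries). From the pathway list, up to 10 genes with the largest fold past these limits were named. Alternatives changed the locus, scaling, barcode filter, gate, depth (5000 fragments per nucleus) and fold. Sequences came from RefSeq tables and the GRCm38 genome, and 500-base windows counted both fragment ends.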

Additional observations from a re-analysis of the deposited data

How the results depend on the processing

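Of 331 values of single genes under an alternative, 268 moved by less than their counting interval, 61 moved by more and 2 reversed. This total pools alternatives that could hardly move a value with those that moved many. Leaving out stretches of other genes, which among the members overlap only Il18, left all 36 values within their intervals. After thinning, 14 values moved by more and 9 by less. With the second gate these were 11 and 14, and with promoters only 13 and 17, besides 1 reversed in each. A reversed value crossed 1 from an interval that had excluded it. These were Il1b in myeloid-gated over other stroke nuclei with promoters only (0.969), and Il18 in stroke over sham myeloid nuclei with the second gate (0.974). Other ratios crossed 1 with the second gate from intervals that included it, such as Il18 (0.769 to 2.46) and Pycard (0.937 to 1.90) in myeloid over other sham nuclei and Naip5 in astrocytes (1.20 to 0.848). The summed ratio of stroke over sham in all kept nuclei, 1.25, was 1.19 with promoters only, 1.37 when scaled to promoter fragments, 1.41 in all called barcodes, 1.10 without myeloid-gated nuclei and 1.12 without those of the second gate. The summed ratio of myeloid-gated over other stroke nuclei, 2.64, was 2.19 in all called barcodes, 3.76 with the gate at 3-fold, 4.08 with nuclei thinned to 5000 fragments and 3.30 with the second gate. The summed ratio of stroke over sham in myeloid-gated nuclei, 2.37, was 3.27 with promoters only, 3.02 with the gate at 3-fold, 3.23 after thinning and 1.43 with the second gate, and the number of members at least 1.5-fold higher there, 7, was 3 with promoters only, 4 after thinning and 3 with the second gate. In astrocyte-gated nuclei the summed ratio, 1.03, was 0.851 with promoters only and 0.752 after thinning, and the number of members, 1, was 0 with promoters only, after thinning and at 2-fold, 3 in all called barcodes, and 2 without nuclei past several gates and with the second gate. The cause of these shifts was not tested. Except for the second gate, counts under an alternative come without the number of members with enough fragments or the share of all genes. A lower count, as with promoters only or after thinning, can therefore also reflect fewer members that could be compared. The second gate, the removal of its myeloid nuclei, the removal of barcodes kept in both libraries and the bins of peak share were chosen after seeing the data. Leaving out the 42 shared barcodes moved no value beyond its interval. No paired analysis was possible because the labels give 1 library to each condition. Depth limits the small classes, and for the 23 sham myeloid nuclei of the second gate 3 counts correspond to 11.5 CPM.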

Other observations

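Called barcodes with at most 20% of fragments in peaks, which were not gated, numbered 162 in sham and 3686 in stroke. Naip2 stood at 31.5 CPM in the sham barcodes (42 fragments) and at 24.9 CPM in the stroke barcodes (883 fragments), and both were above its level in all kept nuclei. Most fragments of these barcodes lay outside peaks. The levels are not scaled to locus length, which was 60.0 kb for Naip2 and 6.16 kb for Pycard. A level above that of kept nuclei is therefore not read as a more open locus here. Naip5 stood at 12.7 and 10.3 CPM and Naip6 at 11.2 and 13 CPM, while Pycard stood at 3.75 and 3.33 CPM, below its level in all kept nuclei of 12.2 and 11.0 CPM. Nlrp3 stood at 12.7 and 11.6 CPM. Nlrc4 stood at 25.5 and 13.6 CPM, above its levels in all kept nuclei. Casp1 stood at 2.25 CPM in sham on 3 fragments [0.464 to 6.57], an interval that includes its kept level of 1.01 CPM. In stroke it stood at 3.59 CPM, above its level of 1.61 CPM in all kept nuclei. Il18 stood at 13.5 and 10.7 CPM and Il1b at 2.25 and 4.24 CPM.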
